A study of Mus musculus with 8 samples.

Results

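The mouse Schlafen (Slfn) genes of chromosome 11 were followed in MEFs, which are fibroblasts cultured out of mouse embryos, with and without interferon-beta (IFN-beta). Members were chosen by gene symbol: Slfn1, Slfn2, Slfn3, Slfn4, Slfn5, Slfn8, Slfn9 and Slfn10-ps, which are 8 of the 24015 symbols in each count table. The 2 IFN-beta libraries came from cells given 100 units/mL of murine recombinant IFN-beta for 6 h, and the 2 untreated libraries from cells left without it. All 4 were wild type MEFs with a C57bl/6 strain background, taken at E12.5 and used at passages 15 to 18. The replicates are numbered, but nothing in the labels says that they came from separate cultures, so the spread behind each p-value is that of these libraries and may be technical. On average over genes, replicates differed by more than counting error. The mean chi-square per gene was 12.1 between the IFN-beta libraries and 34.2 between the untreated libraries (1 degree of freedom). These means used total counts alone as the scale and can be raised by a few abundant genes. They need not describe a typical gene, and they are not the spread used in the tests. The 4 chromatin samples of the series (H3.3-HA ChIP and input) were not analysed here.

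Schlafen proteins share an N-terminal core, and the long forms add a helicase-like C-terminal part. Several family members act on transfer RNA: human SLFN11 cleaves it and limits the translation of viral proteins, and mouse Slfn2 binds it and shields it from cleavage in T cells. The mouse genes are commonly sorted into short forms (Slfn1 and Slfn2), intermediate forms (Slfn3 and Slfn4) and long forms (Slfn5, Slfn8, Slfn9, and the pseudogene Slfn10-ps). Type I interferon acts through a transcription factor complex that holds STAT2 and IRF9 and binds the interferon-stimulated response element (ISRE) in promoters.

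The libraries held 18901845 and 20714161 gene counts with IFN-beta, and 18528685 and 24817342 gene counts without it. Levels are given as CPM, the counts scaled to a common library size with TMM factors and not per length, so levels are compared between libraries and not between genes. Of the 10 fibroblast markers all were tested and 0 were called by edgeR. At an unadjusted edgeR p under 0.05, 2 were higher and 1 lower, against 1164 higher and 1038 lower of all 12128 tested genes. Their summed levels were 6200 to 6568 CPM after IFN-beta and 4845 to 5386 CPM untreated. The 11 T and B cell markers summed to 1.21 to 2.13 CPM after IFN-beta and 0.645 to 0.780 CPM untreated. Cd3d, Cd3e, Cd3g and Ms4a1 were at 0 counts in every library. Only 2 of the 11 were tested, and Lck was called higher. The 8 macrophage and myeloid markers summed to 16.5 to 21.9 CPM after IFN-beta and 17.7 to 22.97 CPM untreated. None of the 8 was at 0 counts in every library, but only 4 were tested. Of these 4, 0 were called by edgeR (1 had an unadjusted p under 0.05). The 8 endothelial and epithelial markers summed to 2.57 to 3.48 CPM after IFN-beta and 1.20 to 1.44 CPM untreated. Only 2 of the 8 were tested, and Cdh5 was called higher. The abundant symbols Rn45s, Lars2 and Mir6236 together took 14.5% and 13.02% of the gene counts in the IFN-beta libraries and 5.94% and 7.52% in the untreated libraries, and the members' calls were as many without them (6). The part of these other cell types in the Schlafen values was not tested, and in bulk samples more cells that carry a transcript and more of it per cell cannot be told apart.

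Most Schlafen transcripts rose after IFN-beta. The 8 members summed to 363 and 348 CPM in the IFN-beta libraries, against 31.2 and 29.2 CPM in the untreated libraries, an 11.8-fold ratio of the means. The edgeR quasi-likelihood test, adjusted by Benjamini-Hochberg over 12128 genes, called 6 of the 7 tested members higher and 0 lower (0 also at an unadjusted p under 0.05, by DESeq2 and by limma-voom). Of all tested genes 4.73% were called higher and 5.23% in either direction, with 574 higher and 60 lower; the split was 478 and 350 with total library size scaling and 520 and 128 with upper quartile scaling. Slfn4 passed the count filter only through its IFN-beta counts and so had to differ; of the other 6 tested members 5 were called. The median log2 fold change was 3.26 over these 6 members (4.23 with Slfn4) and -0.02 over all tested genes. Each of the 8 members was higher in both IFN-beta libraries than in both untreated ones. Slfn1 was not tested and Slfn4 had to differ. Only the other 6 therefore compare with all tested genes, of which 23.9% showed this order.

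**Figure D1:**
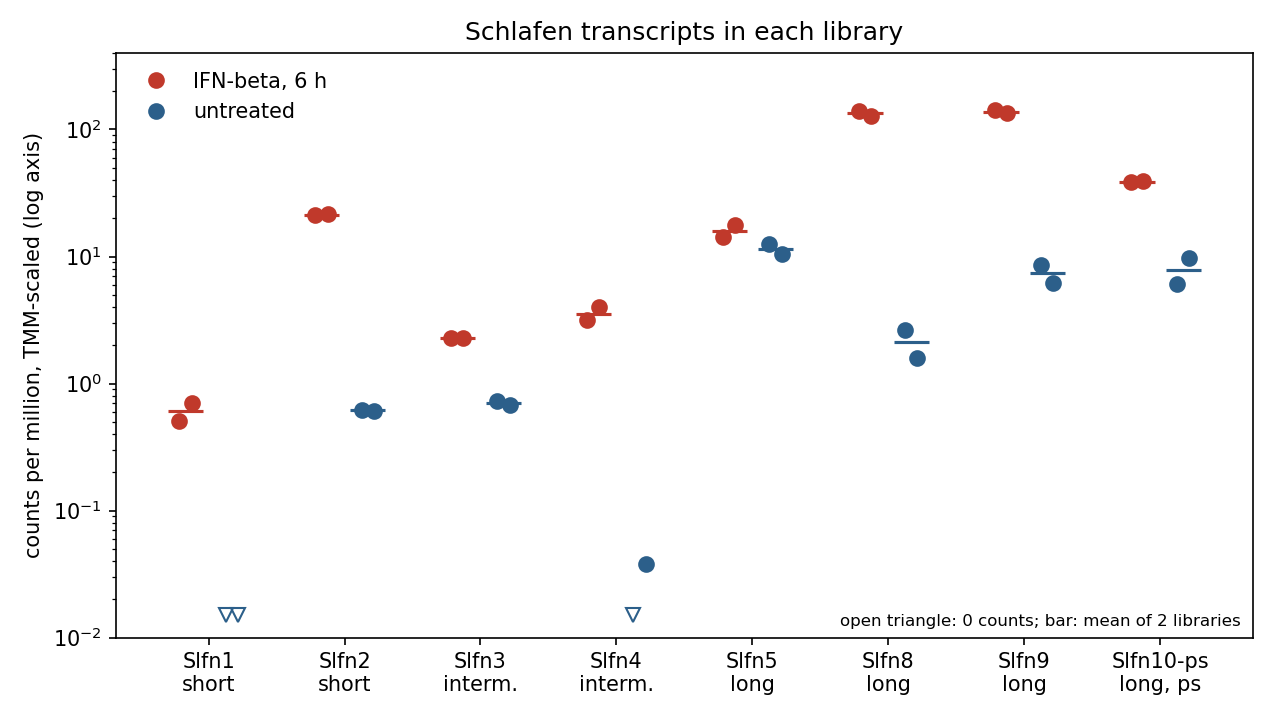
Level of each Schlafen member in each library, in CPM on a log axis, IFN-beta in red and untreated in blue, with the mean of 2 libraries as a bar where neither is at 0, and an open triangle for 0 counts. The red points lie above the blue points for every member; the height of a triangle is not a measured level, so no gap can be read for Slfn1, and Slfn5 has the narrowest measured gap, with 14.2 and 17.8 CPM after IFN-beta against 12.53 and 10.5 CPM untreated.

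Slfn8 and Slfn9, long forms whose genes lie side by side, carried most of the added counts. Slfn8 had 2512 and 2552 counts (141 and 129 CPM) in the IFN-beta libraries, against 51 and 42 counts (2.65 and 1.59 CPM) in the untreated libraries. The treated values lay close together, while untreated replicate 1 was above untreated replicate 2. Slfn8 averaged 135 ± 8.63 CPM after IFN-beta and 2.12 ± 0.748 CPM untreated (SD, n = 2 each), and its log2 fold change was 6.02 ± 0.22 (SE, edgeR adjusted p = 4.3e-08), which ranked 73 among the 12128 tested genes. Slfn9 had 2532 and 2655 counts (142 and 134 CPM) in the IFN-beta libraries, against 166 and 162 counts (8.63 and 6.14 CPM) in the untreated libraries. It again showed no overlap between groups and the same order of the untreated libraries. The log2 fold change of Slfn9 was 4.23 ± 0.18 (SE, edgeR adjusted p = 1.4e-07), rank 128.

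The promoters of this pair are printed because their sequences resemble each other and hold the letters of an ISRE. Both come from the RefSeq promoter table (build GRCm38.p6, 250 bases before to 50 bases after the gene start), which matched 7 of the 8 members. Slfn9 is at chr11:82991781-82992080 and Slfn8 at chr11:83020761-83021060, both on the minus strand, and capitals mark the ISRE core as it reads on the strand of the gene.
Slfn9: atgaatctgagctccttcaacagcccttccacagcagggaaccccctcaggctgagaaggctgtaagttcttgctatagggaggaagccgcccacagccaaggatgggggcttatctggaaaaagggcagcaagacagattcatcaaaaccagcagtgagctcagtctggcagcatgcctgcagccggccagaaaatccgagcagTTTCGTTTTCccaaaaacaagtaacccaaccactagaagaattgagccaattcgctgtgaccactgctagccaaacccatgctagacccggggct
Slfn8: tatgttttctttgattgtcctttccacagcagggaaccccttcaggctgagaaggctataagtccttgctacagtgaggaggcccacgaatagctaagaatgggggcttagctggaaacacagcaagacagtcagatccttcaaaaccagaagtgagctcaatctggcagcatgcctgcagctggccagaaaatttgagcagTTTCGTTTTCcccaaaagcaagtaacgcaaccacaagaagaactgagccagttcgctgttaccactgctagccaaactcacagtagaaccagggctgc
A global alignment of the pair had 248 identical positions in 308 columns (80.5%), against 41.6% to 49.4% for the other pairs of members. In both promoters the core reads TTTCGTTTTC, which is GAAAACGAAA on the other strand, and it lies 45 to 36 bases before the start of Slfn9 and 48 to 39 bases before the start of Slfn8. The second listed start of Slfn8 has the same letters 136 to 127 bases before it. Reads that align equally well to related members may be missing from the counts, so the separate levels of Slfn8, Slfn9 and Slfn10-ps are uncertain; how alike their transcripts are was not measured here.

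The balance between Slfn8 and Slfn9 differed between the groups. There were 0.992 and 0.961 Slfn8 counts per Slfn9 count in the IFN-beta libraries, against 0.307 and 0.259 in the untreated libraries, with no overlap. This ratio of a pair of genes within a library does not depend on its depth, and no test of the difference between their fold changes was made.

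Slfn10-ps, named as a pseudogene, rose less. It had 685 and 783 counts (38.4 and 39.5 CPM) in the IFN-beta libraries, against 116 and 256 counts (6.03 and 9.71 CPM) in the untreated libraries. Its treated libraries were almost equal, while untreated replicate 2 exceeded untreated replicate 1, the reverse of Slfn8 and Slfn9. The log2 fold change was 2.29 ± 0.22 (SE, edgeR adjusted p = 7.1e-05), with 2.03 when untreated replicate 1 was left out and 2.69 when untreated replicate 2 was. Between the untreated libraries, replicate 2 over replicate 1, Slfn10-ps differed by 0.69 on the log2 scale, Slfn9 by -0.49 and Slfn8 by -0.74, where all tested genes had a median absolute difference of 0.23 and a 95th percentile of 0.87.

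Slfn5, a long form whose human counterpart is a nuclear protein that restrains interferon-driven transcription, was the tested member without a call. It had 253 and 353 counts (14.2 and 17.8 CPM) in the IFN-beta libraries, against 241 and 276 counts (12.53 and 10.5 CPM) in the untreated libraries. The groups did not overlap, but the lower treated library was closer to the higher untreated one than to its own replicate. Slfn5 averaged 15.98 ± 2.55 CPM after IFN-beta and 11.5 ± 1.46 CPM untreated (SD, n = 2 each). The log2 fold change was 0.48 ± 0.19 (SE, edgeR adjusted p = 0.216), with a 95% interval from 0.06 to 0.90. Without untreated replicate 1 it passed (0.64, adjusted p = 0.0114); over all alternatives its adjusted p ran from 0.0114 to 0.783. RefSeq lists a gene that overlaps Slfn5, Slfn5os, which had 0 counts in every library, and it also lists genes that overlap Slfn9 (Mir7679, with 0 counts in every library), Slfn2 (Gm20234) and Slfn1 (Gm51911). Reads in such an overlap can be left out as ambiguous, and the strand setting was not given in the sources used here.

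The promoter of Slfn5 also holds the ISRE core letters, and the stretch around them is shown to set it beside those of Slfn9 and Slfn8. It lies at chr11:82951922-82951981 (GRCm38.p6, plus strand), with the core, in capitals, 155 to 146 bases before the start.
Slfn5: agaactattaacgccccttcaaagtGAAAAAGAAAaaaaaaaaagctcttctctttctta
Here the central letters are all A and run on into a longer A tract. The core was therefore present in front of the members with called log2 fold changes of 6.02 and 4.23 and in front of the member at 0.48.

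**Figure D2:**
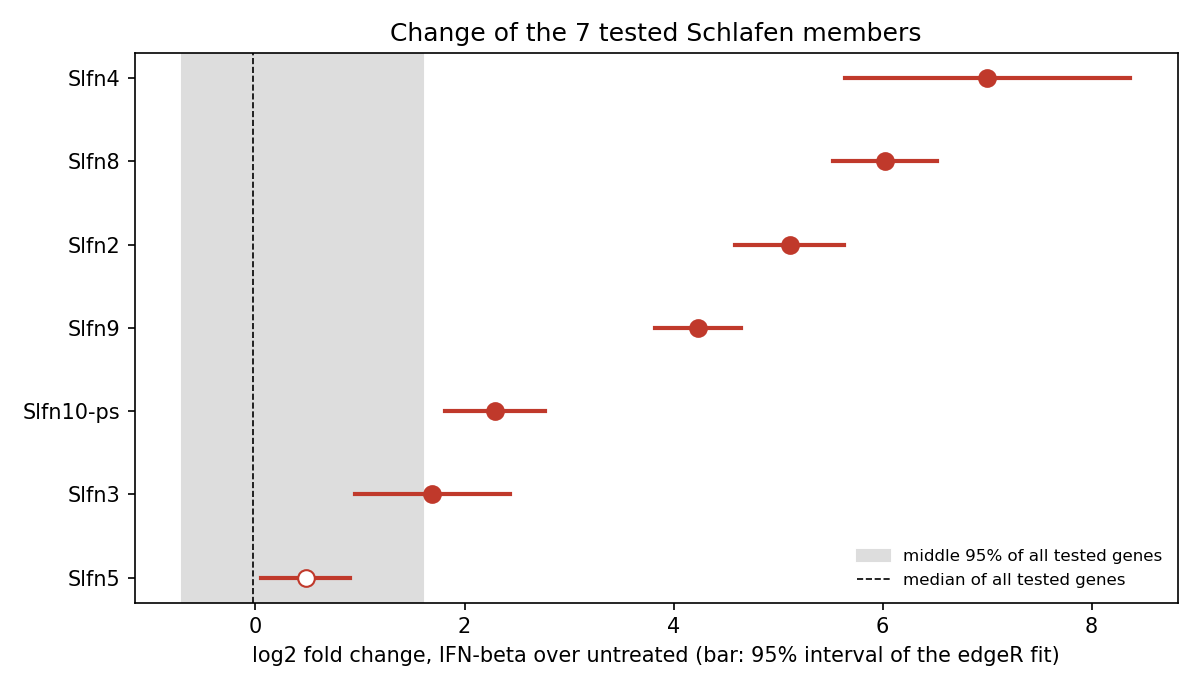
Log2 fold change, IFN-beta over untreated, of the 7 tested members (filled: called by edgeR, open: not called), with 95% intervals of the fit; the grey band holds the middle 95% of all tested genes and the dashed line their median of -0.02. The points run from 0.48 for Slfn5 to 7.002 for Slfn4, whose interval is the widest.

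In order of log2 fold change the tested members were Slfn4, Slfn8, Slfn2, Slfn9, Slfn10-ps, Slfn3 and Slfn5. The 95% intervals of Slfn4 and Slfn8 overlapped, as did those of Slfn8 and Slfn2, of Slfn2 and Slfn9, and of Slfn10-ps and Slfn3. The interval of Slfn9 (3.82 to 4.64) did not overlap that of Slfn10-ps (1.81 to 2.77), nor did that of Slfn3 (0.95 to 2.43) overlap that of Slfn5.

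Among the short forms, Slfn2, which keeps mouse T cells and monocytes quiescent, rose strongly and with little spread. It had 381 and 426 counts (21.4 and 21.5 CPM) in the IFN-beta libraries, against 12 and 16 counts (0.624 and 0.607 CPM) in the untreated libraries. Replicates were nearly equal in both groups. The log2 fold change was 5.11 ± 0.23 (SE, edgeR adjusted p = 2.0e-07, rank 100), and it stayed between 4.97 and 5.15 under every alternative tried.

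Slfn1, which slows growth when expressed in mouse T cells, was below the count filter and was not tested. It had 9 and 14 counts (0.504 and 0.705 CPM) in the IFN-beta libraries, against 0 counts in both untreated libraries. With the untreated group as a whole put at a floor of 3 counts (0.0658 CPM), the pooled IFN-beta level was 9.28-fold that floor. This ratio leaves out the counting error of the IFN-beta counts, so it is not a lower bound. The pooled IFN-beta level was 0.610 CPM with a 95% exact Poisson interval of 0.387 to 0.916 CPM, which covers counting error only. In the alternatives that tested it, edgeR gave an adjusted p of 0.000147 without a count filter, and of 0.00352 and 0.00568 when untreated replicate 1 or untreated replicate 2 was left out. In the fits with a library left out it passed the filter only through its IFN-beta counts and had to differ.

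The intermediate form Slfn4, known from mouse macrophages and other myeloid cells, was nearly silent without the cytokine. It had 56 and 79 counts (3.14 and 3.98 CPM) in the IFN-beta libraries, against 0 and 1 count (0 and 0.0379 CPM) in the untreated libraries. The ratio of the pooled, depth-scaled counts was 163 with a 95% exact interval of 28.8 to 6500, which covers counting error only. The edgeR adjusted p was 3.9e-05, in a test that Slfn4 entered only through its IFN-beta counts. Its fitted log2 fold change of 7.002 ± 0.61 (SE) depends on the prior count, and was 6.29 with a prior count of 0.5, 6.37 when untreated replicate 1 was left out and 9.09 when untreated replicate 2 was.

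Slfn3, an intermediate form studied in the differentiation of rodent gut epithelium, showed the smallest called rise. It had 41 and 45 counts (2.30 and 2.27 CPM) in the IFN-beta libraries, against 14 and 18 counts (0.728 and 0.683 CPM) in the untreated libraries. Replicates agreed closely within each group and the groups stood apart. The log2 fold change was 1.69 ± 0.33 (SE, edgeR adjusted p = 0.0137). The call was lost without IFN-beta replicate 1 (adjusted p = 0.0627) and without IFN-beta replicate 2 (0.0558), in a range from 0.000251 to 0.0627 over all alternatives.

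The promoters of the short and intermediate forms held neither the ISRE core nor the gamma-activated site (GAS) motif in these windows, but they had a stretch in common, noticed after the sequences were seen. The longest stretch found in all 4 is ACTTCCTGG, in capitals below with 20 bases on each side (GRCm38.p6, plus strand). It starts 55 bases before the start of Slfn2 (chr11:83065037-83065085), 74 before that of Slfn1 (chr11:83116726-83116774), 73 before that of Slfn4 (chr11:83175093-83175141) and 42 before that of Slfn3 (chr11:83191268-83191316).
Slfn2: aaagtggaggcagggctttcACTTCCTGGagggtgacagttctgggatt
Slfn1: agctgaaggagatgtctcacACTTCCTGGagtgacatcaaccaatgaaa
Slfn4: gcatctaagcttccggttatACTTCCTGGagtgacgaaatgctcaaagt
Slfn3: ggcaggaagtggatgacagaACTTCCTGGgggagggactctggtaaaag
On either strand it occurred in 277 of the 32851 promoters of the table (0.843%). The run is longer between Slfn1 and Slfn4, where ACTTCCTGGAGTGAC is shared. The members with this stretch ranged from a log2 fold change of 1.69 (Slfn3) to 7.002 (Slfn4).

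The ISRE core was searched as GAAANNGAAA and the GAS motif as TTCNNNGAA, on both strands. As no member held the GAS motif, matches of the 2 motifs did not overlap there. The ISRE core was found in 3 of 7 members and in 3.70% of the promoters of the 9079 tested genes that the table holds, and in 18.3% of the 416 called higher. The GAS motif was found in 0 of 7 members, in 8.37% of those tested genes and in 12% of the 416 called higher. A match of letters is not a binding site, and a missing match says only that these letters are not in these 300 bases.

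The make-up of the Schlafen counts differed between the groups. Slfn8 and Slfn9 made up 77.97% (95% exact binomial interval 76.9 to 78.98) and 75.4% (74.4 to 76.4) of the members' counts in the IFN-beta libraries. In the untreated libraries they made up 36.2% (32.3 to 40.2) and 26.5% (23.4 to 29.7). Slfn5 made up 3.91% (3.45 to 4.41) and 5.11% (4.603 to 5.66) in the IFN-beta libraries, against 40.2% (36.2 to 44.2) and 35.8% (32.4 to 39.3) in the untreated libraries. The long forms together held 92.5% and 91.8% of the counts after IFN-beta and 95.7% and 95.5% untreated, so the shift lay mostly within the long forms. These shares are not per length, and the intervals cover counting error only.

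**Figure D3:**
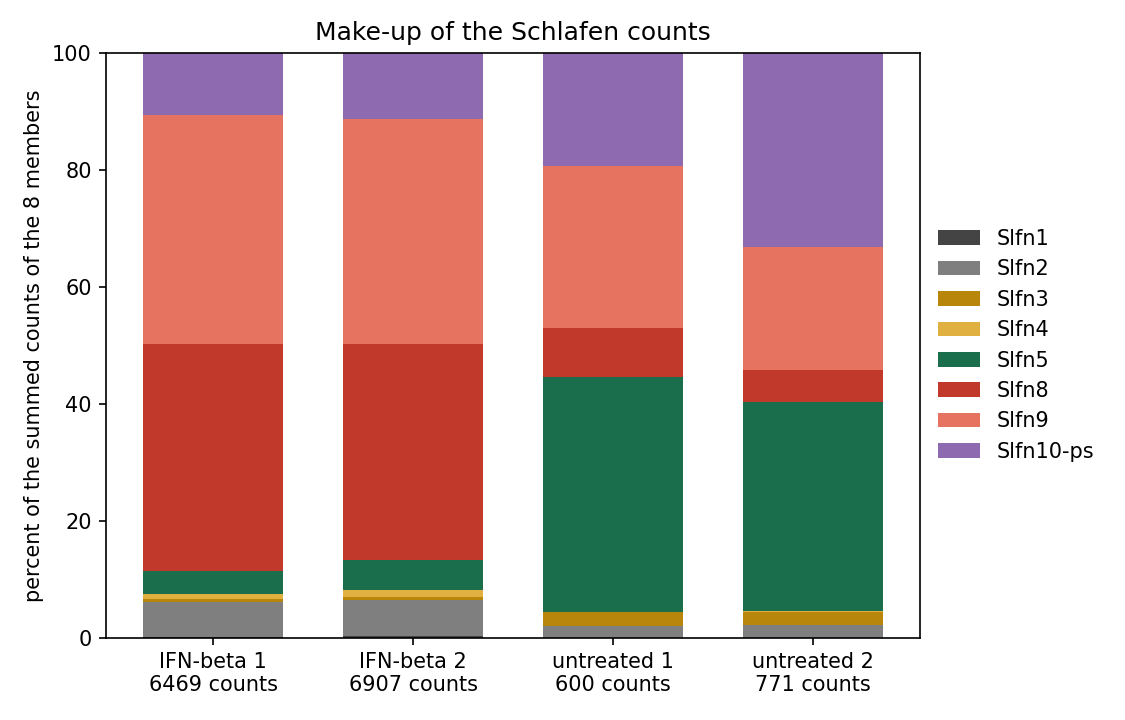
Percent of the summed counts of the 8 members that each member held in each library, with the summed count under each bar. Slfn5 and Slfn10-ps hold the larger part in the 2 untreated libraries, and Slfn8 with Slfn9 holds 77.97% and 75.4% in the 2 IFN-beta libraries.

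The rise was not called in the genes on either side of the cluster. In the gene order of GRCm38.p6 the members run from Slfn5 through Slfn9, Slfn8, Slfn10-ps, Slfn2, Slfn1 and Slfn4 to Slfn3, with Slfn14 beyond. Of 15 neighbour symbols listed, 14 were found, all but Rad51l3. Of these, 9 were tested and 0 were called by edgeR, by DESeq2 or by limma-voom. At an unadjusted edgeR p under 0.05, 3 were higher and 0 lower, against 1164 higher and 1038 lower of all 12128 tested genes. The median log2 fold change of the 9 was 0.32. Mmp28, a matrix metalloproteinase gene, had 0.673 and 1.26 CPM in the IFN-beta libraries, against 0.260 and 0.341 CPM in the untreated libraries (log2 fold change 1.65 ± 0.50 SE, adjusted p = 0.109); it passed without untreated replicate 2 (0.0479), when no count filter was set (0.0469) and with the replicate number as a block (0.0293), in a range from 0.0293 to 0.655. Ap2b1, which encodes a clathrin adaptor subunit, was at 0.32 (adjusted p = 0.248), and Nle1, a ribosome assembly gene, at 0.47 (adjusted p = 0.265). More neighbours were called higher without untreated replicate 2, as were more of all tested genes. In that fit the log2 fold change was 0.44 for Ap2b1 and 0.68 for Nle1. The related gene Slfn14, known from platelets and red cell precursors, had 6 and 4 counts in the IFN-beta libraries and 10 and 5 counts in the untreated libraries, which was below the filter. Slfnl1, on another chromosome, had 2 and 0 counts in the IFN-beta libraries and 2 and 0 counts in the untreated libraries.

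**Figure D4:**
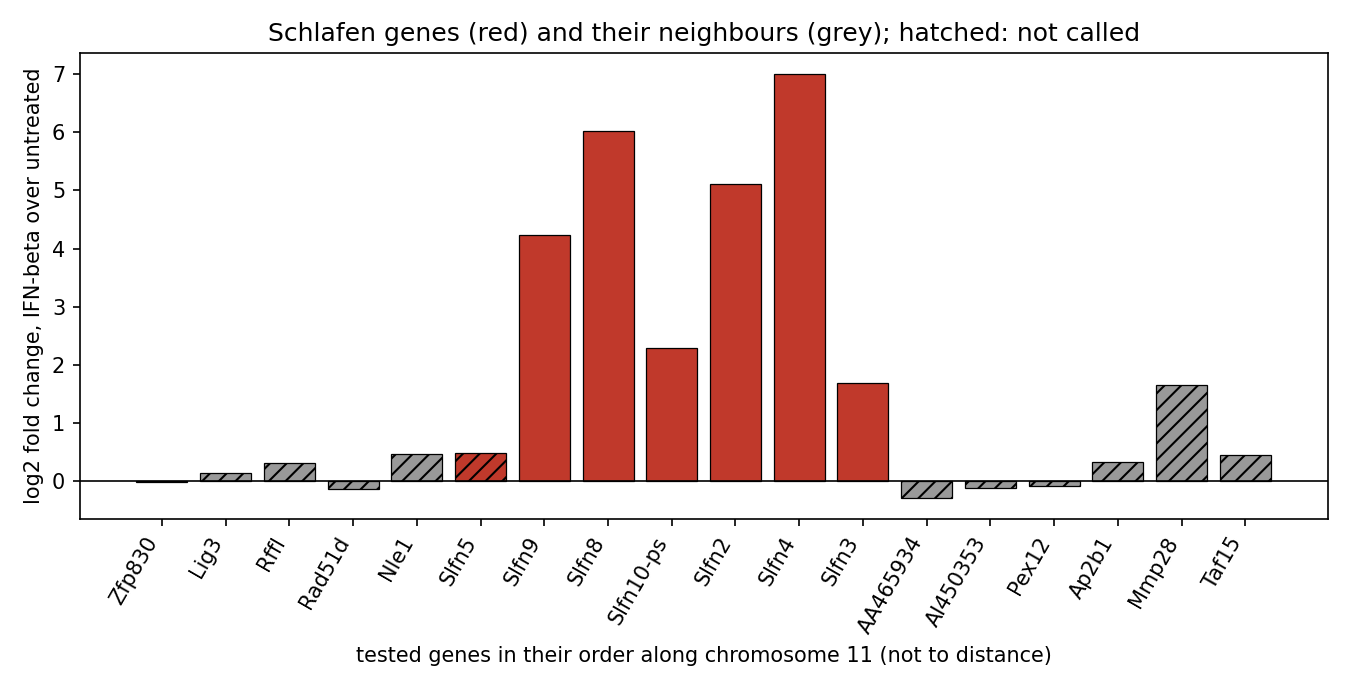
Log2 fold change, IFN-beta over untreated, of the tested genes around the Schlafen cluster in their order along chromosome 11, not drawn to distance; red bars are members, grey bars neighbours (AA465934 and AI450353 lie outside the list of 15), and hatched bars were not called. The called bars are Slfn9, Slfn8, Slfn10-ps, Slfn2, Slfn4 and Slfn3, and Slfn5 at the edge of the cluster (0.48) is close in height to Nle1, the tested gene before it (0.47).

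Of the 12 genes of interferon reception and signalling, 8 rose, where 4.73% of all tested genes were called higher. The median log2 fold change was 2.41. Irf7 passed the count filter only through its IFN-beta counts, and Usp18 lay below the filter's minimum in untreated replicate 2. The calls of both were thus favoured by the filter, and both are in this count and median. Stat2, which carries the signal to the nucleus, had 98.5 and 129.9 CPM in the IFN-beta libraries, against 3.17 and 3.72 CPM in the untreated libraries (log2 fold change 5.04 ± 0.20 SE, edgeR adjusted p = 7.6e-08), and its partner Irf9 rose by 3.77. The transcription factor gene Irf1 rose by 2.98. Irf7 had 1728 and 1745 counts in the IFN-beta libraries, against 0 and 3 in the untreated libraries. Usp18, which restrains the receptor, had 8812 and 9881 counts in the IFN-beta libraries, against 10 and 6 in the untreated libraries. The inhibitor gene Socs1 rose by 1.83 (2.44 without untreated replicate 2). The rise of Stat3 by 0.62 (adjusted p = 0.0256) missed the threshold under scaling by total library size (0.066), under upper quartile scaling (0.0506) and without either IFN-beta replicate (0.171 without replicate 1 and 0.142 without replicate 2), in a range from 2.15e-05 to 0.171. The kinase genes Tyk2 (0.38) and Jak1 (0.21) and the receptor genes Ifnar2 (0.22) and Ifnar1 (-0.14) did not pass; Ifnar1 was named after its value was seen.

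Growth control genes were examined because Slfn1 and Slfn2 are known for effects on growth. Of 17 tested genes 5 were higher and 1 lower at an unadjusted edgeR p under 0.05. All 12128 tested genes held 1164 higher and 1038 lower by that measure. After adjustment 2 rose, where 4.73% of all tested genes were called higher, and the median log2 fold change was 0.06. These were Myc (0.80 ± 0.16 SE, edgeR adjusted p = 0.0185) and the cyclin gene Ccnd3 (0.62 ± 0.13 SE, edgeR adjusted p = 0.0211). Neither was called under scaling by total library size (adjusted p = 0.0558 for Myc and 0.0612 for Ccnd3) or without IFN-beta replicate 1 (0.0828 for Myc and 0.306 for Ccnd3), and Ccnd3 was not called without IFN-beta replicate 2 (0.076). Adjusted p ran from 5.24e-11 to 0.0828 for Myc and from 0.000135 to 0.306 for Ccnd3 over the alternatives. The cyclin genes Ccne2 (-0.44, adjusted p = 0.127) and Ccnd2 (0.53, adjusted p = 0.154) did not pass. Ccne2 was called lower under scaling by total library size (0.0464), and when untreated replicate 1 (0.0391) or untreated replicate 2 (0.00285) was left out, in a range from 0.00285 to 0.999. Ccnd2 was called higher without untreated replicate 2 (4.45e-09) and when no count filter was set (0.00537), in a range from 4.45e-09 to 0.349. Without untreated replicate 2 the list had more calls in both directions, but so did all tested genes.

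Among 10 genes that cut, repair or modify transfer RNA, 1 rose, where 4.73% of all tested genes were called higher. The median log2 fold change of the 10 was 0.08. The processing nuclease gene Elac2 (0.26) and the methyltransferase gene Nsun2 (0.16) did not pass, though without untreated replicate 2 Elac2 did (0.49, adjusted p = 0.012, in a range from 0.012 to 0.999 over the alternatives).

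Genes most like a member in pattern were found by the distance between log2 CPM values, centred on the mean of each gene, over the 4 libraries. The 3 members with the highest mean CPM were used. Nearest to Slfn9 were Gm7609 (distance 0.223), Parp12 (0.259) and Xaf1 (0.261). Nearest to Slfn8 were Phf11b (0.207), Ccrl2 (0.260) and Pydc4 (0.266), each of which had 1 and 0 untreated counts, so that the prior count of 2 set their untreated level. Nearest to Slfn10-ps were Btc (0.0980), Il15ra (0.137) and Myd88 (0.195).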

How the data were processed

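The authors deposited raw read counts per gene symbol, with a separate table for each library. Trizol extraction and TruSeq RNA libraries are given per the labels' protocols. The mm9 build, TopHat2 2.0.13 and HTSeq 0.7.2 are named per the submitters' processing notes; for the annotation and the strand setting, nothing is given in the sources used here. The 5 summary lines of each table, 57.3% to 61.3% of records, name no gene and were left out. Records without a unique alignment were 34.9% and 37.2% in the IFN-beta libraries and 32.95% and 29.8% in the untreated ones.

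Genes were tested with edgeR 4.0.16 (R 4.3.3): TMM scaling, minimum count 10 and minimum total count 15, quasi-likelihood F test with group as the only term, and Benjamini-Hochberg adjustment over all tested genes, called below 0.05. The procedure was tested on simulated data. The SE was taken as the log2 fold change over the square root of F. CPM values were computed from the deposited counts. Pooled ratios have exact binomial intervals and floors are 3 counts at a 95% level; neither covers more than counting error. Exact permutation tests were not used, since 4 libraries allow no p under 0.333. Proteins were not aligned here. Promoter sequences come from RefSeq (GRCm38.p6), matched by symbol, and were aligned with Biopython 1.88. Alternatives were other scalings, filters and prior counts, DESeq2 1.42.0, limma-voom (limma 3.58.1), a replicate block, leaving out the abundant symbols Rn45s, Lars2 and Mir6236, and leaving out each library. A fit without 1 library takes its spread from the other group, with the lone library assumed to vary like it.

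Named were the members, the called genes of each list (at most 5 for growth and transfer RNA), 2 or 3 uncalled genes with the smallest p, and the 3 genes nearest to each of 3 members. The values of some genes of these lists are not reported here. Members and lists were chosen with earlier results of these data known.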

Additional observations from a re-analysis of the deposited data

How the results depend on the processing

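The count of Schlafen members called higher was 6 in 9 of the 10 alternatives that keep all libraries and 7 without a count filter, where Slfn1 enters, and between 5 and 8 with 1 library left out. The 7 tested members kept their direction under each of the 14 alternatives; Slfn1 had a value in 3 of them, higher after IFN-beta in each. Under scaling by total library size the median log2 fold over all genes was -0.16, and relative to that shift the member values were close to those above (Slfn8 5.88, Slfn5 0.34). Over all tested genes the higher count was 863 without a count filter and 470 to 1885 with 1 library left out. The lower count was 350 with total library size, 128 with upper quartile scaling, 381 without a count filter, 103 with DESeq2, 155 with the replicate block, and 24 to 1728 with 1 library left out, the highest without untreated replicate 2. Growth control calls were 1 with total library size, 4 without a count filter and 0 to 10 with 1 library left out. Neighbour calls were 1 without a count filter, 1 with the replicate block (Mmp28 both times) and 0 to 5 with 1 library left out, and transfer RNA calls 1 to 2. Mmp28 was below the stricter filter and has no value there. The cause of these shifts was not tested. The labels do not say that replicate numbers pair libraries, and deviations of same-numbered libraries had a correlation of -0.033 across genes; with the replicate block 6 members were called. Depth limits Slfn1, Slfn3 and Slfn4, with 23, 86 and 135 pooled counts after IFN-beta and 0, 32 and 1 untreated. It also limits the untreated level of Slfn2, with 28 pooled counts.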
